A study of Bos taurus with 60 samples.

Results

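D7 vs. D-3 sets the mammary gland 1 week into the dry period against the same cows 3 days before milking was stopped. The comparison used every library of those time points, 12 from D7 and 12 from D-3, which is 24 of the 60 libraries of the series. All came from mammary biopsies of 12 multiparous Holstein cows, a dairy breed, that were dried off about 46 days before the expected calving. During the dry period 6 cows were cooled (CL; shade, fans and soakers) and 6 were heat-stressed (HT; shade), and since both treatments began at dry-off, the D-3 samples precede them. The biopsied gland of the udder alternated from 1 sampling to the next, and no cell type was isolated, so that fewer cells of a type and less RNA per cell cannot be told apart. The authors counted reads per locus and deposited whole-number counts, which ranged from 21620814 to 25324602 per library at D-3 and from 21369890 to 26183990 at D7. Levels are given as CPM, counts scaled to a common library total, after TMM scaling in edgeR, which adjusts for the make-up of each library.

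In late lactation the secretory epithelium makes caseins, whey proteins, lactose and milk fat, and it imports glucose, amino acids and fatty acids at a high rate to do so. When milk removal stops, the alveoli fill, secretion declines, and part of the epithelium is shed or remodelled, while immune cells enter and the matrix is rebuilt. In pregnant dairy cows this involution overlaps with renewal of epithelial cells before the next calving.

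The libraries labelled D-3 were not alike in the genes that define lactation. The caseins CSN1S1 and CSN2 and the whey protein LALBA, which is the regulatory part of lactose synthase, took 40.9% of the counts of cow 7965 at D-3, 43.1% in cow 8541, 40.2% in cow 8564, 44.4% in cow 8647 and 49.8% in cow 8713. In the other 7 cows the share at D-3 lay between 0.19% (cow 8060) and 8.03% (cow 8668). At D7 the share lay between 0.00669% (cow 8541) and 14.5% (cow 8513), with a median of 1.56% against 4.75% at D-3. It was lower at D7 in 7 cows and higher in 5, namely 8060, 8314, 8513, 8660 and 8686. The mean log2 ratio of D7 to D-3 was -2.87 ± 5.35 (SD, n = 12 cows). A two-sided exact sign-flip test of that mean against 0 gave p = 0.0942, or 0.0479 without cow 8513. TMM factors of the D-3 libraries ran from 0.3 to 1.21 and those of D7 from 0.878 to 1.19. The cows were kept together in every comparison, since milk genes are part of what is compared. Why 7 D-3 libraries held few milk transcripts was not tested.

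**Figure D1:**
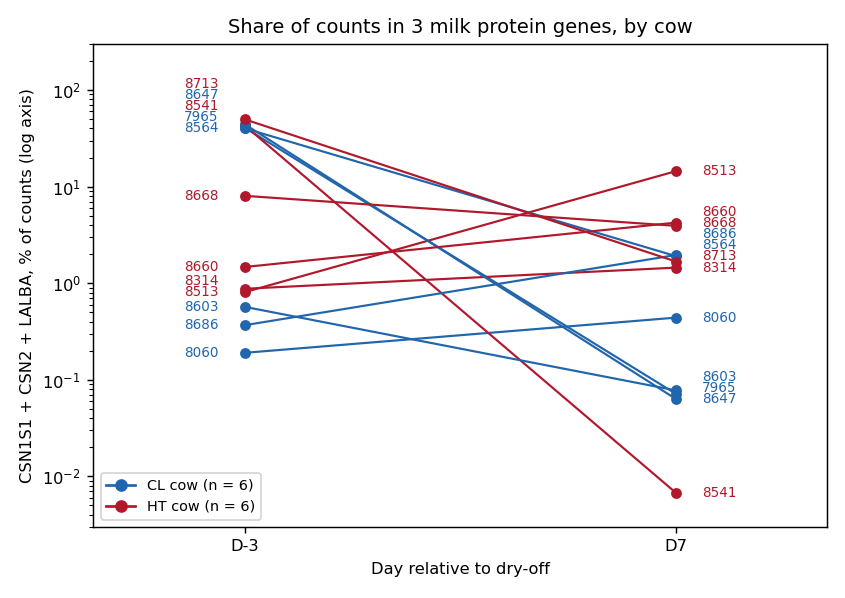
Share of the counts of each library taken by CSN1S1, CSN2 and LALBA (vertical log axis, percent) at D-3 and D7, with 1 line per cow and colours for CL and HT. A set of 5 lines starts above 40% at D-3 and falls, while 5 of the other 7 cows, all below 10% at D-3, end higher at D7 than they began.

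A total of 14714 loci reached 1 CPM in 6 or more of the 60 libraries, and a single edgeR quasi-likelihood fit of those libraries tested each. At a Benjamini-Hochberg FDR of at most 0.05, 1245 loci (8.46%) were differentially expressed (DEGs), with 1048 lower (7.12%) and 197 higher (1.34%) at D7. Most DEGs were thus lower at D7, with a median log2 fold change of -0.73 among DEGs that fell and 0.69 among those that rose. At least a 2-fold change was seen in 364 of the lower and 62 of the higher loci. These calls, and the FDR and SE given per gene unless another fit is named, depend on the spread taken from all 5 time points. The fit of 60 libraries had no term for the cow, so libraries of the same cow counted as independent. In a fit of only the 24 libraries of D-3 and D7, 0 loci passed edgeR's test, with 3329 at an unadjusted p under 0.05 and a smallest FDR of 0.0683. Adding the cow as a block to that fit again gave 0 in edgeR, with 3208 loci at an unadjusted p under 0.05. In the fit of 60 libraries a block for the cow gave 1950 DEGs, of which 564 were higher and 1386 lower. Scaling by library size alone gave 23 DEGs and moved the median log2 fold change of all loci to 0.408. The median SD of log2(CPM + 1) between cows over all loci was 0.398 at D-3, 0.371 on D3, 0.289 on D7, 0.331 on D14 and 0.284 on D25. Over the loci called lower it was 0.733 at D-3, 0.403 on D3, 0.303 at D7, 0.33 on D14 and 0.274 on D25. For these loci a spread pooled over the days lies below that of D-3, so the printed SE and FDR can be too small.

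**Figure D2:**
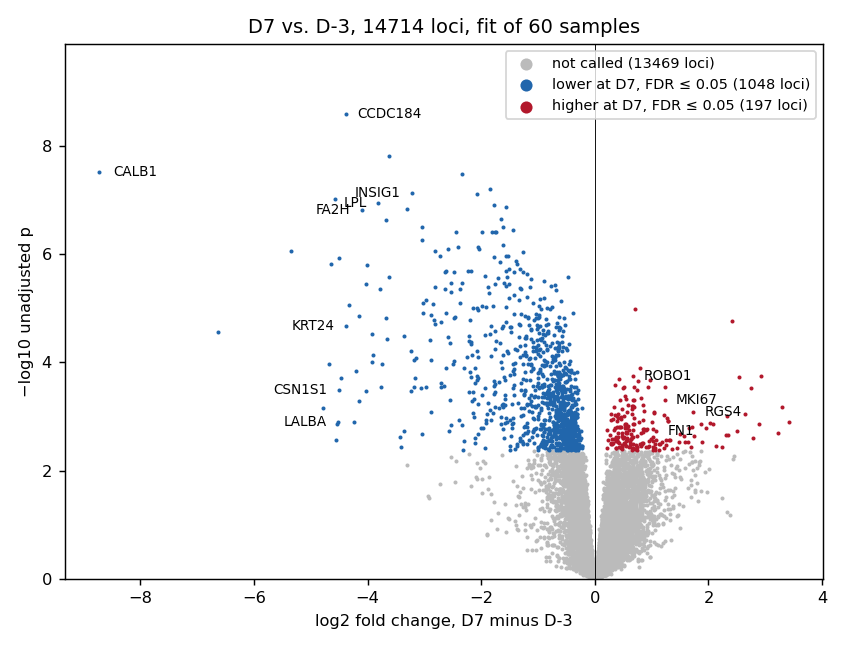
Log2 fold change, D7 minus D-3 (horizontal), against −log10 of the unadjusted p (vertical) for 14714 loci, with 1048 called lower in blue, 197 called higher in red and the rest in grey. The lower side reaches -8.72 and holds most of the loci with a small p.

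No locus separated the time points fully. For 0 of 14714 loci did the values of all 12 cows at D7 lie beyond those of all 12 cows at D-3. Of the 1048 loci called lower, cow 8713 was lower at D7 for 1046, cow 8647 for 1045, cow 8541 for 1044, cow 8564 for 1043 and cow 7965 for 1039. Cow 8603 was lower for 739. The other 6 cows were lower for 316 (cow 8686) to 459 (cow 8314) of them, and their median log2 difference over these loci lay between 0.05 and 0.18. Of the 197 loci called higher, 195 to 197 were higher in cows 7965, 8541, 8564, 8647 and 8713 and 186 in cow 8603, and the other 6 cows ran from 147 (cow 8060) down to 48 (cow 8513). Among called loci, 19 were lower and 12 higher in at least 11 of 12 cows, and 1 was lower in all 12. Called or not, 148 loci (1.01%) moved 1 way in at least 11 cows. Leaving out a cow moved the count of DEGs by more than 1.5 times in 6 cases. It was 690 without cow 7965, 320 without cow 8541, 403 without cow 8564, 305 without cow 8647, 400 without cow 8713 and 1908 without cow 8513. Of the 1245 DEGs, 249 passed in each of the 12 fits that left out a cow, and 248 of these were lower at D7. The exact sign-flip test on within-cow differences gave p of at most 0.05, unadjusted, for 758 of the 1245 DEGs. These were 572 of the 1048 lower and 186 of the 197 higher loci. Over all 14714 loci it did so for 3110. The calls came from these same D-3 and D7 libraries. The sign-flip counts among DEGs and the directions by cow thus repeat part of the selection and are no independent support.

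**Figure D3:**
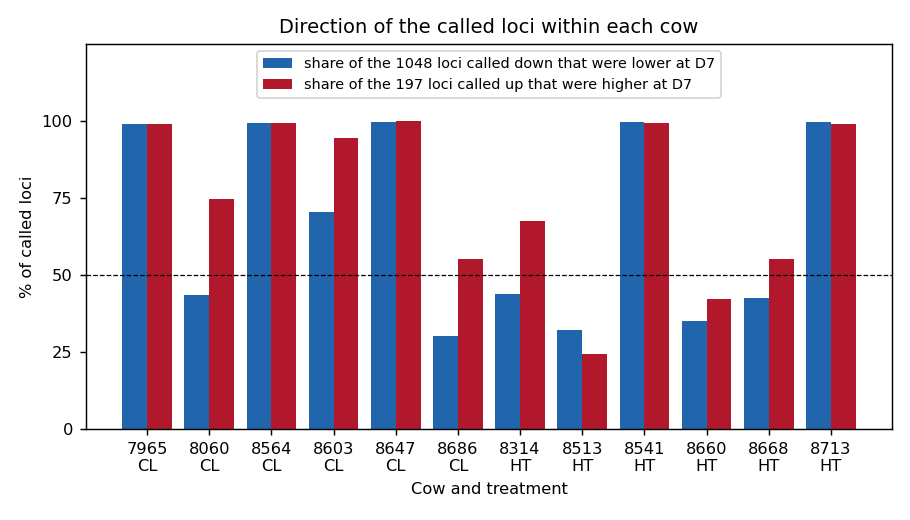
For each cow (horizontal, with its treatment), the percent of the 1048 loci called lower that were lower at D7 in that cow (blue) and of the 197 called higher that were higher (red), with a dashed line at 50%. Cows 7965, 8541, 8564, 8647 and 8713 reach nearly 100% on both bars, and cows 8513 and 8660 lie below the line on both. The loci were called with these same libraries, so the bars repeat part of that selection.

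Symbols could be given to 3007 of the tested loci, from the identifier columns of tables held here in part. Those tables rank loci by comparisons that share libraries with this one, and loci with a symbol were called more often than the rest. Among loci with a symbol 18.8% were lower and 2.29% higher, and the counts for gene lists below stand beside those shares.

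The DEGs that went the same way in at least 11 cows are described first. CCDC107, a coiled-coil protein gene, was the 1 DEG that was lower at D7 in all 12 cows. At D-3 it lay between 1.83 and 7.27 CPM (median 3.2), and at D7 between 1.16 and 3.43 (median 1.93). The log2 fold change was -0.77 ± 0.21 (SE; edgeR, FDR = 0.013; lost without cow 8541). The exact sign-flip p was 0.000488, which any locus lower in all 12 cows must have, so it repeats how the locus was chosen. The ranges of the time points overlapped, and the within-cow difference was smallest in cow 8660 at -0.08 and largest in cow 8564 at -1.19.

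FA2H, the fatty acid 2-hydroxylase that makes hydroxylated sphingolipids, had the largest fall among the named loci that were lower in 11 cows. Its level lay between 0.532 and 27.8 CPM at D-3 (median 1.91) and between 0.0394 and 0.979 at D7 (median 0.314). The log2 fold change was -4.10 ± 0.69 (SE; edgeR, FDR = 0.000174), and cow 8513 alone was higher at D7. ART3, an ADP-ribosyltransferase gene, went from a median of 3.21 to 1.36 CPM, with a log2 fold change of -2.40 ± 0.43 (SE; edgeR, FDR = 0.000396). Both kept the call whichever cow was left out. MTURN, a regulator of neural progenitor differentiation, was the most abundant of this set, with a median of 121 CPM at D-3 and 78.3 at D7. Its values ran from 70.2 to 321 CPM at D-3, and at D7 from 57.3 to 119, and the log2 fold change was -0.81 ± 0.21 (SE; edgeR, FDR = 0.0118; lost without cow 8541, 8647 or 8713).

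Other falls in 11 of 12 cows were seen for CHRND, an acetylcholine receptor subunit (-1.38), NPAS2, a transcription factor of the circadian clock (-0.57), and TNNT2, a troponin (-0.53). LSM10, a part of the particle that processes histone messages, changed by -0.52, CACYBP, which binds calcyclin, by -0.42 and GIPC1, a trafficking adaptor, by -0.41, all in log2 fold change with FDR from 0.00714 (CACYBP) to 0.0447 (CHRND) in edgeR. The level of CHRND was low, with medians of 0.776 CPM at D-3 and 0.406 at D7. Its within-cow log2 difference was only -0.039 in cow 8603 and -0.126 in cow 8060. CHRND, NPAS2 and TNNT2 passed in 6, 6 and 5 of the 12 fits that left out a cow, and LSM10, CACYBP and GIPC1 in 7, 10 and 8. Of loci without a symbol, XLOC_014938 fell by 0.87 and XLOC_020793 by 0.84 on the log2 scale in 11 cows, with FDR of 0.00524 and 0.0154 in edgeR. They passed in 12 and 8 of those fits.

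On the rising side, 4 loci with a symbol were called and higher in at least 11 cows. RGS4, a brake on G protein signalling, lay between 0.544 and 7.92 CPM at D-3 (median 2.57) and between 0.995 and 26.4 at D7 (median 6.14). It rose by a log2 fold change of 1.73 ± 0.49 (SE; edgeR, FDR = 0.0198) and was lower at D7 in cow 8314 alone. The exact sign-flip p of 0.00146 adds little, since the locus was chosen for rising in at least 11 cows. The call was lost without cow 8541, 8564 or 8647. ROBO1, a receptor for SLIT guidance proteins, rose by 0.67 ± 0.17 on the log2 scale (SE; edgeR, FDR = 0.00787). Its level was 9.92 to 30.7 CPM at D-3 and 26.4 to 41.7 at D7, and cow 8686 alone was lower at D7. Without cow 8541 it did not pass. FAM64A, which acts at the step from metaphase to anaphase, and the cyclin CCNB3 rose by 1.30 and 0.65 on the log2 scale (edgeR, FDR = 0.0245 and 0.0179), and passed in 8 of the 12 fits that left out a cow. Without a symbol, XLOC_000583 and XLOC_004530 rose by 1.04 and 1.02 on the log2 scale (edgeR, FDR = 0.0198 and 0.0398), from means of 0.257 and 28.4 CPM to 0.574 and 57.9. They passed in 9 and 6 of the 12 fits that left out a cow.

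Of 7 listed milk proteins 3 could be tested by symbol, and all 3 fell. CSN2, which encodes beta-casein, ran from 827 to 767600 CPM (median 21290) at D-3, and at D7 from 31.2 to 80740 (median 9447). Its log2 fold change was -4.15 ± 1.13 (SE; edgeR, FDR = 0.0145), with 7 cows lower and 5 higher. LALBA changed by -4.52 ± 1.33 and CSN1S1, which encodes alpha-s1-casein, by -4.51 ± 1.18 on the log2 scale (SE; edgeR, FDR = 0.025 and 0.0109). A block for the cow gave an FDR of 0.1 for CSN2, 0.0522 for LALBA and 0.0798 for CSN1S1 in edgeR, so that 0 of 3 passed. The exact sign-flip p was 0.0845 for CSN2, 0.0859 for LALBA and 0.0718 for CSN1S1. Without the block, CSN2 lost its call without cow 8541, 8564, 8647 or 8713, LALBA without these or cow 7965, and CSN1S1 without cow 8647 or 8713. The within-cow log2 difference of LALBA reached from -15.2 in cow 8541 to 9.81 in cow 8513.

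Of 9 tested genes for lactose synthesis and glucose use, 5 fell and 0 rose, with a list median of -0.75 on the log2 scale. The median over cows of the within-cow list median was 0.04, of the opposite sign. SLC2A1, the glucose transporter of the basal membrane, lay between 24.7 and 235 CPM (median 53.5) at D-3, and at D7 between 26.8 and 70.1 (median 40.6). It fell by a log2 fold change of 1.23 ± 0.26 (SE; edgeR, FDR = 0.00177). UGP2, which makes UDP-glucose, and SLC35A2, which carries UDP-galactose into the Golgi, changed by -1.05 and -0.65, and B4GALT1, the catalytic part of lactose synthase, by -0.98. The FDR of B4GALT1 was 0.0203 in edgeR, or 0.0513 with a block for the cow, and 6 cows were higher and 6 lower. With the block 3 of the 9 passed, and without cow 8541, 8564 or 8647 the list held 1 call, and without cow 8713 it held 2.

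Fatty acid and triglyceride synthesis showed 11 of 16 members lower and 0 higher, with a list median of -2.0. FASN, the fatty acid synthase, was at 802 to 24900 CPM at D-3 (median 4071) and at 501 to 5727 at D7 (median 929), and fell by 1.93 ± 0.50 on the log2 scale (SE; edgeR, FDR = 0.0105). INSIG1, a sterol-regulated brake on lipid synthesis, fell from a median of 138 to 38.6 CPM with a log2 fold change of -3.22 ± 0.52 (SE; edgeR, FDR = 0.00016). It was lower in 10 of 12 cows. GPAT4 and GPAM, which attach the first acyl chain to glycerol-3-phosphate, changed by -2.07 and -2.81, and ACSS2, which activates acetate, the main carbon source for milk fat in ruminants, by -2.34. These 4 genes passed without each cow in turn, and FASN did not pass without cow 8564, 8647 or 8713.

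In the list for lipid uptake and the milk fat globule, 6 of 9 members fell and 0 rose (median -1.85). The median over cows of the within-cow list median was -0.42, below 0 in 7 cows and above 0 in 5. LPL, the lipase that releases fatty acids from circulating triglyceride, ran from 36.8 to 6822 CPM (median 179) at D-3, and at D7 from 35.5 to 657 (median 75.7). Its log2 fold change was -3.82 ± 0.63 (SE; edgeR, FDR = 0.000174), with 7 cows lower and 5 higher. CD36, a fatty acid transporter, and RAB18, a lipid droplet GTPase, changed by -2.54 and -1.85, and were lower in 7 and 9 cows. XDH, an enzyme of the globule membrane, was called lower with a log2 fold change of -1.76 ± 0.46 (SE; edgeR, FDR = 0.0116; lost without cow 8541, 8564, 8647 or 8713) and was higher at D7 in 7 of 12 cows. Its mean fell from 6292 ± 6317 to 1864 ± 1236 CPM (SD, n = 12 cows) and its median from 2393 to 1564.

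In cholesterol synthesis 14 of 15 members fell and 0 rose, with a median of -1.30, and 9 to 15 fell whichever cow was left out. HMGCS1 and IDI1, which act early in the pathway, changed by -2.05 and -1.74. HMGCS1 lay between 43.7 and 1340 CPM at D-3 and between 44 and 106 at D7, and was lower in 9 cows. MSMO1 and SC5D, which act on sterols late in the pathway, changed by -1.82 and -1.30. The median over cows of the within-cow list median was -0.2, below 0 in 8 cows and above 0 in 3. SREBF2, the transcription factor that drives this pathway, had a log2 fold change of -0.45 ± 0.16 (SE; edgeR, FDR = 0.0595) and passed with a block for the cow (FDR = 0.0387).

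Amino acid transport and serine synthesis had 11 of 14 members lower and 0 higher (median -1.19). SLC7A5, a carrier of large neutral amino acids, went from a median of 67.9 CPM (26.3 to 909) to 50.2 (19.8 to 135), with a log2 fold change of -2.45 ± 0.43 (SE; edgeR, FDR = 0.000249). PSAT1 of serine synthesis, ASNS, which makes asparagine, and SLC38A2, a carrier of small neutral amino acids, changed by -1.76, -1.32 and -0.59. The partner chain of SLC7A5, SLC3A2, was at -0.30 ± 0.19 (SE; edgeR, FDR = 0.314), with 10 cows lower. In the citrate cycle and branched-chain list 8 of 12 fell and 0 rose, including IDH1 (-1.03), PDHA1 (-0.50) and IVD (-0.72), but 1 fell without cow 8541, 8564, 8647 or 8713. Aminoacyl-tRNA synthetases, which load amino acids onto tRNAs, had 6 of 8 lower and 0 higher, among them TARS (-0.995), GARS (-0.99) and NARS (-0.35), and 2 fell without cow 8541 or 8647. EPRS, which loads glutamate and proline, was called lower at -0.48 ± 0.16 (SE; edgeR, FDR = 0.0451), with 6 cows lower and 6 higher, and did not pass without cow 7965, 8541, 8564, 8647 or 8713. For the endoplasmic reticulum and secretion 6 of 7 fell and 0 rose, including SRP54 of the signal recognition particle (-0.97), the signal peptidase subunit SPCS1 (-0.86), SEC62 of the translocon (-0.70), the translocon-associated SSR1 (-0.47) and the stress-response factor ATF4 (-0.97). The median over cows of the within-cow list median was -0.06 for amino acids (below 0 in 6 cows), -0.17 for the citrate cycle (7 cows), -0.04 for the synthetases (7 cows) and -0.08 for the endoplasmic reticulum (8 cows). Each of these counts is to be read against the 18.8% of loci with a symbol that were lower.

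**Figure D4:**
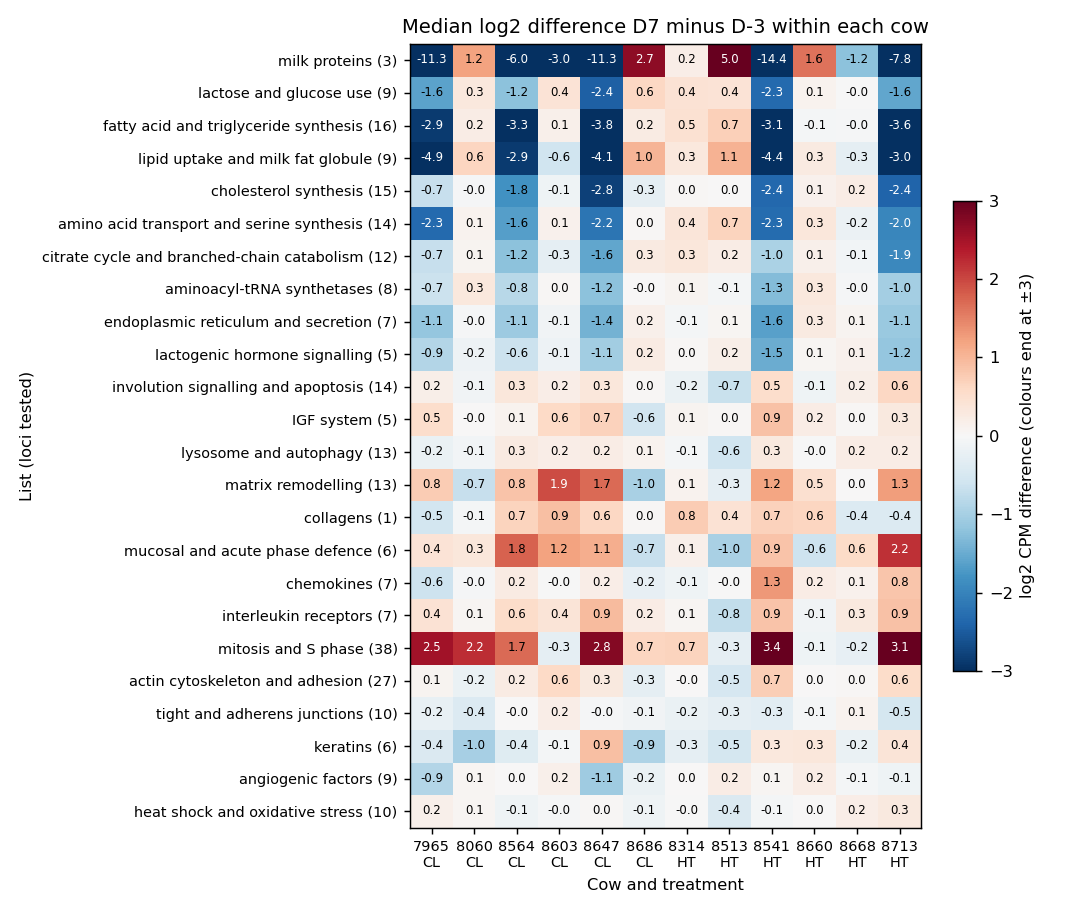
Median log2 difference in CPM, D7 minus D-3, of the tested members of each list (rows, number of loci in brackets) within each cow (columns). The 10 lists at the top are negative in cows 7965, 8541, 8564, 8647 and 8713, and the mitosis list is positive in them and in cows 8060, 8314 and 8686.

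The lists at the top of that plot were negative in the same cows. For fatty acid and triglyceride synthesis the within-cow list median was -2.86 in cow 7965, -3.12 in cow 8541, -3.27 in cow 8564, -3.79 in cow 8647 and -3.64 in cow 8713. In the other 7 cows it lay between -0.06 and 0.72. Cow 8513 was highest, and its milk protein share was also the largest at D7.

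Of 5 tested genes of lactogenic hormone signalling, 1 fell, against 18.8% of loci with a symbol. It was the glucocorticoid receptor NR3C1 (-0.55 ± 0.15, SE; edgeR, FDR = 0.0168; lost without cow 7965, 8541, 8564, 8647 or 8713). It lay between 137 and 416 CPM at D-3, and at D7 between 111 and 258. STAT5B, which relays prolactin and growth hormone signals, was at -0.49 ± 0.18 (SE; edgeR, FDR = 0.0647) and passed with a block for the cow (FDR = 0.0254). The insulin receptor INSR was at -0.015 ± 0.13 (SE; edgeR, FDR = 0.959). Among 14 genes of involution signalling and apoptosis 1 fell, NUPR1, a stress-induced nuclear protein, by 1.26 ± 0.39 on the log2 scale (SE; edgeR, FDR = 0.0341), with an FDR of 0.0689 under the block. Its call was lost without the same 5 cows as that of NR3C1. STAT3, a driver of involution in mouse models, had a median of 226 CPM at D-3 and 287 at D7, with a log2 fold change of 0.23 ± 0.13 (SE; edgeR, FDR = 0.265), and it was higher in 10 of 12 cows. The receptors OSMR and TNFRSF1B were at 0.44 and 0.55 (edgeR, FDR = 0.344 and 0.0825). In the IGF list 0 of 5 passed edgeR's test (1 at an unadjusted p under 0.05, 1 in DESeq2), with IGFBP7 at 0.23 (higher in 9 cows), IGF1R at 0.06 and IGFBP5 at -0.05. With a block for the cow 1 passed, the growth factor IGF1, which had a log2 fold change of 0.74 ± 0.27 (SE; edgeR, FDR = 0.0714, or 0.027 with the block) and was higher in 10 cows.

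Lysosome and autophagy genes, which are known to rise at the start of involution, had 0 of 13 members called either way at D7 in edgeR, 0 at an unadjusted p under 0.05 and 0 in DESeq2 (list median 0.04). The lysosomal membrane protein LAMP1 had medians of 255 CPM at D-3, 375 at D3 and 268 at D7. PSAP, the precursor of the saposins, had 865, 1197 and 910, and CD63, of late endosomes, had 345, 376 and 309. The D3 and D7 values are set against the same D-3 libraries. Only 13 of 45 listed genes could be tested, through symbols from tables that rank loci by comparisons sharing libraries with this one. Members that differed at D3 may therefore be favoured here and in the actin list below, which was not tested. In the actin cytoskeleton and adhesion list, 0 of 27 were called (median 0.14; 3 at an unadjusted p under 0.05, 0 in DESeq2), with ACTB at 1130, 1758 and 1423 CPM on the same days. FLNA, which crosslinks actin, was at -0.009 ± 0.21 in log2 fold change between D7 and D-3 (SE; edgeR, FDR = 0.984).

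Matrix genes moved in both directions. Of 13 tested members 1 rose and 2 fell. FN1, which encodes fibronectin, lay between 153 and 1115 CPM at D-3 (median 532) and between 566 and 1823 at D7 (median 1033). It rose by 1.07 ± 0.33 on the log2 scale (SE; edgeR, FDR = 0.0312), in 9 of 12 cows, and the largest within-cow log2 difference was 3.57 in cow 8603. Without cow 8541, 8564, 8603, 8647 or 8713 it did not pass. TIMP4 and TIMP3, inhibitors of matrix metalloproteinases, fell by 1.22 and 0.62 (edgeR, FDR = 0.00402 and 0.0371), in 9 and 8 cows. TIMP4 passed in all 12 fits that left out a cow, and TIMP3 in 6. MXRA5, a matrix-associated protein, had medians of 158 and 340 CPM and a log2 fold change of 0.92 ± 0.37 (SE; edgeR, FDR = 0.105). THBS1, the matrix glycoprotein thrombospondin 1, had medians of 180 and 335 CPM, with 8 cows higher and a log2 fold change of 0.05 ± 0.36 (SE; edgeR, FDR = 0.949). The collagen list had 1 tested member, COL14A1, at 0.28 (FDR = 0.489).

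None of 6 mucosal and acute phase genes, 0 of 7 chemokines and 0 of 7 interleukin receptors passed edgeR's test, with 3, 0 and 3 at an unadjusted p under 0.05 and 0 in each list by DESeq2. With a block for the cow 1 interleukin receptor passed, IL15RA, which presents interleukin 15, with a log2 fold change of 0.50 ± 0.20 (SE; edgeR, FDR = 0.0994, or 0.0229 with the block) and 9 cows higher. The receptors IL1R1 and IL27RA were at 0.07 and 0.22 (edgeR, FDR = 0.863 and 0.412), and the chemokines CXCL12, CXCL16 and CCL25 at 0.06, 0.05 and -0.19 (edgeR, FDR = 0.866, 0.872 and 0.274). LBP, the plasma protein that binds endotoxin, had medians of 57.1 CPM at D-3 and 153 at D7. It was higher at D7 in 10 cows, with a log2 fold change of 0.76 ± 0.50 (SE; edgeR, FDR = 0.342; exact sign-flip p = 0.0405). The complement component C3 ran from 218 to 8855 CPM at D-3, and at D7 from 320 to 7789, with 8 cows lower, and its log2 fold change of -0.09 ± 0.59 (SE; edgeR, FDR = 0.949) turned to 0.13 relative to all loci when only library size was used for scaling.

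Among the lists, mitosis and S phase had the most members that rose, and it was also the list with the most members tested. These members were testable only through tables of comparisons that share libraries with this one, which the share over all loci with a symbol does not correct for. Of 38 tested, 7 rose and 0 fell, set against 2.29% of loci with a symbol, and the list median was 0.85 on the log2 scale. MKI67, the proliferation marker Ki-67, lay between 2.65 and 112 CPM at D-3 (median 32.4) and between 22.2 and 157 at D7 (median 87.1). Its log2 fold change was 1.23 ± 0.33 (SE; edgeR, FDR = 0.0142; exact sign-flip p = 0.00732), with cows 8513, 8660 and 8668 lower at D7, and the call was lost without cow 8564 or 8647. KIF20A, a kinesin of cytokinesis, and ASPM, of the spindle poles, rose by 1.29 and 1.22 (edgeR, FDR = 0.0242 and 0.0214), in 10 and 9 cows, and each passed in 6 of the 12 fits that left out a cow. CCND1, a cyclin of the G1 phase, was at 0.12 ± 0.29 (SE; edgeR, FDR = 0.834). TOP2A, the topoisomerase of dividing cells, was at 0.86 ± 0.35 (SE; edgeR, FDR = 0.105). With a block for the cow 26 of the 38 rose and 0 fell, TOP2A included (FDR = 0.0195). The count that rose was 15 in DESeq2, 0 without cow 8564 or 8647, 1 without cow 7965, 8060, 8541 or 8713, 13 without cow 8513 or 8668, 17 without cow 8660 and 18 without cow 8603. Within cows the list median was highest in cow 8541 at 3.44 and lowest in cow 8603 at -0.28, with -0.26 in cow 8513.

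**Figure D5:**
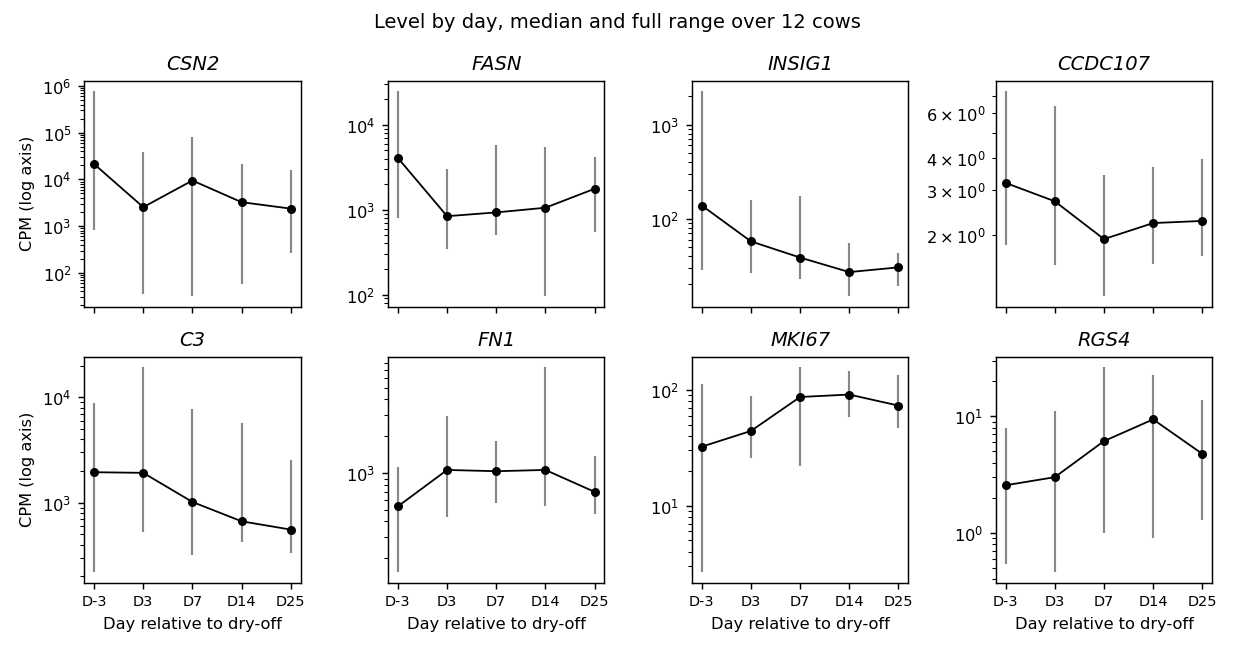
Level of 8 genes (vertical log axes, CPM) over the 5 sampling days, with the median of 12 cows as points and the lowest to highest cow as bars. The INSIG1 bar at D-3 reaches 2263 CPM against 174 at D7, the MKI67 median is 87.1 at D7 against 32.4 at D-3, and FN1 stays near its D3 median at D7 and D14.

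On the later days the called loci stayed on the same side of D-3 by their median. The median log2 fold change against D-3 of the 1048 loci called lower at D7 was -0.65 on D3, -0.73 on D7, -0.77 on D14 and -0.75 on D25. For the 197 loci called higher it was 0.35, 0.69, 0.77 and 0.56. All 4 values rest on the same D-3 libraries, and the loci were chosen for their D7 value. The median of MKI67 was 44.3 CPM on D3, 87.1 on D7, 91.3 on D14 and 73.4 on D25, and that of INSIG1 was 57.3, 38.6, 27.0 and 30.3 CPM.

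Of 9 angiogenic factors and of 10 heat shock and oxidative stress genes 2 each fell, against 18.8% of loci with a symbol. The angiogenic genes were VEGFA, the main endothelial growth factor (-0.76, FDR = 0.0014), and its receptor FLT1 (-0.89, FDR = 0.00579), while the receptor KDR was at -0.66 (FDR = 0.0515; all edgeR). The stress genes were the superoxide dismutase SOD1 (-0.48; edgeR, FDR = 0.0068) and DDIT3, a factor of the unfolded protein response (-0.50; edgeR, FDR = 0.0367), the latter in 10 cows. SOD1 passed in 10 and DDIT3 in 6 of the 12 fits that left out a cow. The small heat shock protein HSPB1 was at -0.08 (FDR = 0.824; edgeR), the polyamine enzyme SAT1 at -0.05 (FDR = 0.88; edgeR) and the co-chaperone DNAJA1 at -0.28 (FDR = 0.139; edgeR). In the junction list 0 of 10 passed edgeR's test (1 at an unadjusted p under 0.05, 0 in DESeq2), and TJP1, the zonula occludens protein, had medians of 221 and 215 CPM. CTNNA1, alpha-catenin, was at -0.007 (edgeR, FDR = 0.972), and F11R, a junctional adhesion molecule, at -0.22 (edgeR, FDR = 0.23) with 9 cows lower. Of 6 keratins 1 fell, KRT24, from a median of 2.61 CPM (0.123 to 130) to 0.456 (0.0377 to 6.44), with a log2 fold change of -4.38 ± 0.95 (SE; edgeR, FDR = 0.00212). KRT24 was lower in 7 cows and higher in 5. KRT5, a keratin of basal cells, had medians of 266 and 276 CPM (-0.02 ± 0.30, SE; edgeR, FDR = 0.972). KRT19, a keratin of luminal epithelium, was lower in 11 of 12 cows, from a median of 908 to 588 CPM, with an exact sign-flip p of 0.00244, yet its fitted change of -0.48 ± 0.34 (SE; edgeR, FDR = 0.38) did not pass. The SD of its within-cow log2 difference was 0.389. The fit takes its spread from all 5 time points, and at D14 KRT19 ran from 3.36 to 1642 CPM and KRT5 from 6.57 to 559. Whether the D14 values cost KRT19 its call was not tested.

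Markers of cell types showed few calls, from lists that could be tested only in part. The summed level of 3 of 8 luminal markers was 790 to 2010 CPM at D-3 and 609 to 1470 at D7, and that of 5 of 8 myoepithelial markers was 567 to 3270 and 973 to 2390, with 0 called in either. Of 2 fibroblast markers (411 to 1100 against 639 to 1680 CPM), 2 endothelial markers (82.3 to 423 against 117 to 200) and 1 macrophage marker (9.54 to 33.1 against 13.2 to 41.9), 0 passed edgeR's test. With a block for the cow 1 fibroblast marker passed, DCN, which encodes decorin (0.63 ± 0.24, SE; edgeR, FDR = 0.084, or 0.0425 with the block), and the fibroblast list median was above 0 in 10 of 12 cows. Of 2 adipocyte markers, FABP4, a fatty acid binding protein that endothelium also holds, fell by 1.49 ± 0.49 on the log2 scale (SE; edgeR, FDR = 0.0443, or 0.0879 with a block for the cow), and passed in 4 of the 12 fits that left out a cow. The other, ADIPOQ, which encodes adiponectin, was at 0.49 ± 0.45 (SE; edgeR, FDR = 0.514). The 2 skeletal muscle markers summed to at most 2.58 CPM. For T and NK cells, B and plasma cells, neutrophils and erythrocytes no tested locus had a symbol on the list, and the part of cell make-up in the changes above was not tested.

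Fitted within each treatment, D7 vs. D-3 gave 301 DEGs in CL cows (2.05%, 262 lower and 39 higher) and 1 in HT cows (0.0068%), which was CCDC184, a coiled-coil protein gene. The cows with a milk protein share above 40% at D-3 were 3 of 6 in CL and 2 of 6 in HT. Without cow 7965, 8564 or 8647 the CL count was 0, it was 494 without cow 8713 and 758 without cow 8686, and without cow 8713 the HT count was 0. In edgeR, 2678 loci in CL and 937 in HT had an unadjusted p under 0.05. The difference between the treatments was tested itself, as the interaction, and 0 loci passed in edgeR (0.0%), with 132 at an unadjusted p under 0.05 and 1 called by DESeq2. The DESeq2 call was XLOC_017968, with an HT minus CL difference of 25.87 on the log2 scale. Whether that size rests on a single library was not tested. The smallest p values belonged to XLOC_006203, XLOC_025221 and XLOC_000518, with HT minus CL differences of 5.43 ± 1.43, 10.22 ± 2.78 and -1.21 ± 0.36 on the log2 scale (SE; edgeR, FDR = 1 for each). Without cow 8686, a CL cow, the difference of XLOC_025221 was -1.31. The D-3 library of that cow held 11.1 CPM of XLOC_006203 and 270 of XLOC_025221, against at most 1.13 and 3.25 CPM in the other D-3 libraries. CCDC184 was at 169 CPM at D-3 in cow 8713 and between 0.696 and 15.2 in the other cows, and at most 1.6 at D7.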

How the data were processed

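RNA was extracted from mammary biopsies and sequenced as poly(A)-selected single-end libraries. Per the labels and the study's methods, the authors trimmed reads (Trim Galore 0.4.1), aligned them (TopHat2 2.0.13), assembled loci (Cufflinks 2.2.1) and deposited raw counts per locus from HTSeq, 26073 entries per library. The methods and the labels name the cattle assembly differently (the labels list UMD3.1), so no coordinate is given. Symbols were matched by locus identifier for 3033 loci.

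Counts were scaled by TMM and tested with edgeR 4.0.16 (R 4.3.3), as a quasi-likelihood F-test with a mean per time point in all 60 libraries and Benjamini-Hochberg adjustment. The SE was derived from the F statistic. Treatment effects used a mean per treatment and time point. Single loci also got a two-sided exact sign-flip test over the 4096 sign changes of the 12 within-cow log2 CPM differences (prior count 2). The scripts were tested on simulated counts. D-3 and D7 libraries of a number are the same cow, per the labels. Their deviations from the group means had a mean correlation of 0.218 (-0.0729 to 0.465), against -0.0186 between different cows. Only 4 of the 12 D-3 libraries correlated best with the D7 library of their own cow. Alternatives were a block for the cow, DESeq2 1.42.0, other scalings, filters and samples, and leaving out each cow.

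Named genes were, with a symbol, up to 10 per direction with the largest change among DEGs moving 1 way in at least 11 cows, and 2 without; in each of 24 lists, up to 3 called members per direction by p and the 3 most abundant; and the 3 loci with the smallest interaction p. FABP4, ADIPOQ and DCN (markers), IGF1 and IL15RA (calls under the block) and CCDC184 (the HT call) were named after their values were seen. A gene that the rule picks in the cholesterol list is not reported here, and loci that join several genes are not named. Members and lists were chosen with earlier results of these data known.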

Additional observations from a re-analysis of the deposited data

Results flagged for a closer look

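Within each treatment, 236 sets of 6 cows were searched for a single cow far from the other 5 by Dixon's ratio (critical value 0.625), and 6 were found. The critical value is set so that chance flags about 1 in 20 independent sets. These sets share the same cows and are not independent, so the number of flags cannot be compared with that rate. No conclusion is drawn from the number of flags. In log2 difference between D7 and D-3, NUPR1 was at -4.042 in cow 7965, away from the other CL cows (ratio 0.763). PSAP was at 1.02 in cow 8603 among CL cows (0.683) and at -0.962 in cow 8513 among HT cows (0.854). C3 was at 2.305 in cow 8603 among CL cows (0.629). DNAJA1 was at -1.116 in cow 8541 among HT cows (0.745). The milk protein share at D7 was 14.5% in cow 8513, above the other HT cows (0.708).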

How the results depend on the processing

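With the cow as a replicate block there were 1950 DEGs, 564 of them higher, and 0 in HT cows. Using only the 24 libraries of D-3 and D7, with or without the block, gave 0 higher and 0 lower, and without it 0 in CL and 0 in HT cows. Library size alone gave 23 DEGs (5 higher, 18 lower), 9 in CL cows, and relative to all loci a log2 fold change of 0.128 for C3, 0.003 for TJP1, -0.191 for THBS1, -0.036 for CXCL16 and CCND1 and 0.047 for CTNNA1. The 24 libraries with the block turned FLNA to 0.009, CTNNA1 to 0.006 and KRT5 to 0.028. DESeq2 called 375 higher, 716 in CL cows, 16 in HT cows and 1 locus for the HT minus CL difference, and tagwise dispersions, chosen after seeing the data, called 335 higher. Leaving out 1 cow gave 305 to 1908 DEGs, 9 to 565 higher, 296 to 1343 lower, 0 to 758 in CL and 0 to 1 in HT cows. The mean log2 ratio of the milk protein share ran from -1.98 to -3.51 (exact sign-flip p = 0.0479 without cow 8513). The log2 fold change ran from -0.151 to 0.061 for PSAP, -0.061 to 0.025 for LAMP1, -0.51 to 0.237 for C3, -0.057 to 0.032 for TJP1, -0.061 to 0.03 for INSR, -0.166 to 0.044 for IGFBP5, -0.136 to 0.413 for THBS1, -0.039 to 0.157 for CXCL12, -0.065 to 0.194 for CXCL16, -0.016 to 0.192 for IL1R1, -0.096 to 0.078 for FLNA, -0.027 to 0.026 for CTNNA1, -0.139 to 0.101 for KRT5 and -0.1 to 0.018 for SAT1, and for XLOC_025221, HT minus CL difference, from -1.309 to 12.266. Of 119 loci followed, calls were lost for 16 without cow 7965, 36 without cow 8541, 30 without cow 8564, 38 without cow 8647 and 31 without cow 8713. Among these loci the block took 6 calls away and added 6. The cause of these shifts was not tested.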

Other observations

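Some loci outside the lists are given here, chosen after their values were seen. CALB1, the calcium buffer calbindin, had medians of 1.40 CPM at D-3 and 0.126 at D7, with a lowest value of 0 on both days and highest values of 1949 and 3.56. Its log2 fold change was -8.72 (edgeR's quasi-likelihood test with Benjamini-Hochberg adjustment, FDR = 0.000122) and ran from -10.07 to -6.36 when 1 cow was left out. PTHLH, the parathyroid hormone-like hormone that lactating tissue releases, had medians of 19.99 CPM (0.668 to 644) and 1.95 (0.559 to 69.2), with -4.64 (edgeR, FDR = 0.000539). ORAI1, a calcium channel of the plasma membrane, changed by -1.98 (edgeR, FDR = 0.000249). PTHLH was lower in 9 cows and CALB1 and ORAI1 in 8. Both subunits of the mitochondrial pyruvate carrier, MPC1 and MPC2, changed by -1.51 and -1.61 on the log2 scale (edgeR, FDR = 0.000611 and 0.000249), and were lower in 7 and 8 cows. These 5 loci passed whichever cow was left out.

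On the rising side, ACP5, the tartrate-resistant acid phosphatase of osteoclasts and macrophages, had medians of 24.2 CPM at D-3 (12.2 to 84.4) and 42.3 at D7 (19.9 to 946). OCSTAMP, which takes part in the fusion of such cells, had medians of 0.0387 and 0.395 CPM. Their log2 fold changes were 2.42 and 2.53 (edgeR, FDR = 0.00194 and 0.00816), each was higher in 9 of 12 cows, and both lost the call without cow 8647, in which ACP5 was highest at D7. The 1 macrophage marker tested, AIF1, was not called. Its log2 fold change was 0.17, with 6 cows higher and 6 lower, and its medians were 21.4 CPM at D-3 and 21.8 at D7. Whether cells of these types became more frequent was not tested.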
